A study of Homo sapiens with 20 samples.

Results

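The genes described here are 50 genes of the cell division cycle: cyclins and their kinases, inhibitors of those kinases, factors of DNA replication, and proteins of mitosis. They are a list of names, put together with earlier results of these data known, and each had a row among the 54435 features counted. They fall into 5 roles, with 5 G1 cyclins and kinases, 4 brakes of G1, 6 genes of the G1/S transition, 16 genes of DNA replication and 19 genes of G2 and mitosis. After a filter on low counts, 48 of them were among the 16792 features tested. The 2 that were not tested are the kinase inhibitors CDKN2A and CDKN2C.

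The study concerned DIGIT, a long noncoding RNA, in the differentiation of human embryonic stem cells toward endoderm. Poly(A) RNA of the H1 line was sequenced in 6 groups of 2 libraries. KO1 and KO2 are labelled as DIGIT knockout lines of H1, and WT is the unedited H1 line. Day 4 libraries came from cells given 50 ng/ml Activin A for 4 days in RPMI medium with B27 supplement, and day 0 libraries came from cells kept in mTeSR1, a medium that maintains pluripotent cells. The labels do not give the deleted sequence or the number of alleles. Nor do they say that libraries of a group came from separate cultures, so p-values measure only the spread between these libraries. DIGIT itself has no row under that name, so the knockout is taken from the labels. Each knockout line is compared with the same unedited line, so loss of DIGIT cannot be told apart from other differences between lines.

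A cell enters division in G1, where D cyclins activate CDK4 and CDK6, which phosphorylate the retinoblastoma protein RB1 and free the E2F transcription factors. Cyclin E with CDK2 then drives entry into S phase, and ORC, CDC6 and CDT1 load the MCM helicase at origins before DNA is copied. Cyclin A and cyclin B with CDK1 drive G2 and mitosis, in which Aurora and Polo kinases, kinetochore proteins and kinesin motors separate the chromosomes. Human embryonic stem cells are known for a short G1, which lengthens as they differentiate.

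The promoters of these genes differ by role, so examples of each kind are printed before the measurements. RefSeq sequences of GRCh38.p14 were available for 41 of the 50 genes, as windows of 250 bases before to 50 bases after the start. E2F motifs were searched as the words TTTCCCGC, TTTCGCGC, TTTGCCGC and TTTGGCGC on both strands. At least 1 of these words lay in 11 of 14 replication genes (78.6%) and in 3 of 4 genes of the G1/S transition, but in 1 of 16 genes of G2 and mitosis (6.25%), against 3.99% of 27305 genes. The capitals mark the E2F words in the last 100 bases before the start of CDC25A (chr3:48188418-48188517), E2F1 (chr20:33686386-33686485), PCNA (chr20:5126623-5126722) and GINS2 (chr16:85688955-85689054), all on the minus strand.
CDC25A: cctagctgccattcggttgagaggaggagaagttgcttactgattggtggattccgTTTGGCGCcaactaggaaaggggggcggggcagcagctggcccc
E2F1: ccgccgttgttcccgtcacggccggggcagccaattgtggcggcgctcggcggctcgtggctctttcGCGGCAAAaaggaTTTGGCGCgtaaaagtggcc
PCNA: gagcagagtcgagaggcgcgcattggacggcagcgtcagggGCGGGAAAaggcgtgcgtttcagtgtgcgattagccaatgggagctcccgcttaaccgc
GINS2: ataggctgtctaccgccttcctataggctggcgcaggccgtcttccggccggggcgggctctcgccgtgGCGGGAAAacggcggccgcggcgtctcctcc

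The second kind of promoter carries the CHR, a short element of late cell cycle genes, searched here as TTTGAA on both strands. It lay in 10 of 16 genes of G2 and mitosis (62.5%) and in 1 of 14 replication genes (7.14%), against 18.2% of the 27305 genes. CCAAT, the NF-Y box, lay in 14 of the 16 genes of G2 and mitosis (87.5%) and in 11 of the 14 replication genes, against 39.7% of all genes. These matches describe letters in a window and not bound sites. The capitals mark the CHR word in the last 100 bases before the start of CCNB2 (chr15:59105046-59105145, plus strand), PLK1 (chr16:23678789-23678888, plus strand), MKI67 (chr10:128126424-128126523, minus strand) and BUB1B (chr15:40160969-40161068, plus strand).
CCNB2: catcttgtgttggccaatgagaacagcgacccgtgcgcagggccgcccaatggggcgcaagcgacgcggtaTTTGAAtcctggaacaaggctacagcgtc
PLK1: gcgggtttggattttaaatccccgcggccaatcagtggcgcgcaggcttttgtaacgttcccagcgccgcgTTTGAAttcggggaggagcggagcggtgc
MKI67: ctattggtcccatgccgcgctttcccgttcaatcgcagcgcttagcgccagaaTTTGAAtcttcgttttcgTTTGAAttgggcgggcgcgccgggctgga
BUB1B: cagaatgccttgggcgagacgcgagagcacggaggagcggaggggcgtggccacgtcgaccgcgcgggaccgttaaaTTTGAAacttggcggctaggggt

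The libraries held 9942016 to 21394547 counts, and the 50 genes took 0.796% to 0.961% of them. Levels below are CPM, counts of a gene relative to the total of its library, scaled by TMM factors, which ranged over 0.937 to 1.05, and a gene is called when its adjusted p is under 0.05 in edgeR's quasi-likelihood test. KO1 day 0 replicate 2 stood apart. Its score on the fourth principal component was 33.3, against -21.6 to 5.52 in the other 11 libraries. The chi-square per feature between the KO1 day 0 libraries was 22.0, against 1.96 to 4.11 for the other pairs. In that library the replication genes summed to 3094 CPM, against 4014 CPM in its partner. Some counts and values below are therefore given without it too, while others are given only with it. Of the 50 genes, 26 overlap another gene in the reference gene table, among them CCND2 with CCND2-AS1, CDK6 with CDK6-AS1 and PCNA with PCNA-AS1. The strand setting of the counting is not given in the sources used here, so reads of such partners cannot be told apart.

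The differentiation marker genes differed between the lines at day 4, and their part in the results below was not tested. The 7 endoderm markers (SOX17, CXCR4, FOXA2, GATA6, GATA4, CER1 and EOMES) summed to 5363 to 5456 CPM in KO1, 999 to 1238 in KO2 and 4800 to 5321 in WT, and all 7 were above 0 in every group. All 7 were called lower in KO2 than in WT, and 3 of 7 were called lower in KO1. Over all features, 13.5% were called higher and 14.5% lower in KO2 than in WT, and 10.5% and 9.42% in KO1. Between the knockout lines, 10.8% were higher and 14.3% lower in KO2 than in KO1. The 6 pluripotency markers summed to 3045 to 3050 CPM in KO1, 3457 to 3495 in KO2 and 3190 to 3311 in WT. The 5 mesoderm and fibroblast markers summed to 115 to 122 CPM in KO1, 70.5 to 71.7 in KO2 and 93.7 to 115 in WT. Of these 5, PDGFRA, TWIST1 and HAND1 were called higher in KO1 than in WT (median over the 5 of 1.27 on the log2 scale), PDGFRA and COL1A1 were called lower in KO2 than in WT, and all 5 were called lower in KO2 than in KO1. Of the pluripotency markers, 4 of 6 were called higher and 1 lower in KO2 than in WT, and 1 lower in KO1. The 4 neuroectoderm markers summed to 34.2 to 36.1 CPM in KO1, 34.1 CPM in both KO2 libraries and 38.2 to 40.3 CPM in WT. Of the 3 tested, 1 was called higher and 1 lower in KO2 than in WT (log2 from -1.55 to 0.50), and 0 were called in KO1. In bulk RNA, fewer cells of a type and less RNA per cell cannot be told apart.

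Undifferentiated cells of the 3 lines were compared first. None of the 48 genes tested was called between KO1 and WT or between KO2 and WT at day 0, where 0.238% and 0.143% of all features were called by edgeR. At an unadjusted p under 0.05, 6 of 48 passed in KO1 and 1 of 48 in KO2, and DESeq2 also called 0 in either comparison. Their log2 differences from WT ranged from -0.39 to 0.56 in KO1 and from -0.22 to 0.18 in KO2. In KO1 the lowest value was that of RRM2 and the highest that of CDK6, and its day 0 libraries differed in both. In replicates 1 and 2 of KO1 at day 0, RRM2 had 204 and 118 CPM and CDK6 had 40.8 and 72.2 CPM. With KO1 day 0 replicate 1 left out, KO1 rested on replicate 2 alone. More of these genes, and more of all features, were then called against WT. The median log2 difference from WT over these genes was -0.12 then, and -0.02 with replicate 2 left out. Between the knockout lines, 0 of 48 were called at day 0 (2 at an unadjusted p under 0.05 and 0 by DESeq2), with 0.0119% of all features called. Without KO1 day 0 replicate 1, more of these genes and more of all features were called. The median log2 difference of KO2 from KO1 over these genes was 0.08 without that library and -0.01 without replicate 2.

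Genes outside the 50 did differ before differentiation. CDKN1A, the p21 inhibitor of cyclin-dependent kinases, had 12.03 and 10.1 CPM in KO1, 11.4 and 15.7 in KO2 and 28.9 and 27.5 in WT at day 0. Every knockout library lay below both WT libraries. The log2 difference from WT was -1.35 ± 0.18 in KO1 (adjusted p = 0.0024) and -1.06 ± 0.19 in KO2 (adjusted p = 0.0363). The KO1 call was lost without either WT day 0 library. The KO2 call was lost in 8 of 20 alternatives, each of which left out 1 library of WT day 0, KO2 day 0, KO1 day 4 or KO2 day 4. CDKN1A was the 1 gene called at day 0 among 22 other G1 regulators, in either line. TPX2, a spindle assembly factor, was the 1 gene called among 36 other genes of G2 and mitosis, in KO2 alone of the 2 comparisons with WT. It had 394 and 405 CPM in KO2 and 300.4 and 312 CPM in WT at day 0, a log2 difference of 0.38 ± 0.07 (adjusted p = 0.0258), lost in the same 8 alternatives as CDKN1A in KO2. None of 42 other replication genes was called at day 0 by edgeR or DESeq2, with 1 in KO1 and 0 in KO2 at an unadjusted p under 0.05.

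**Figure D1:**
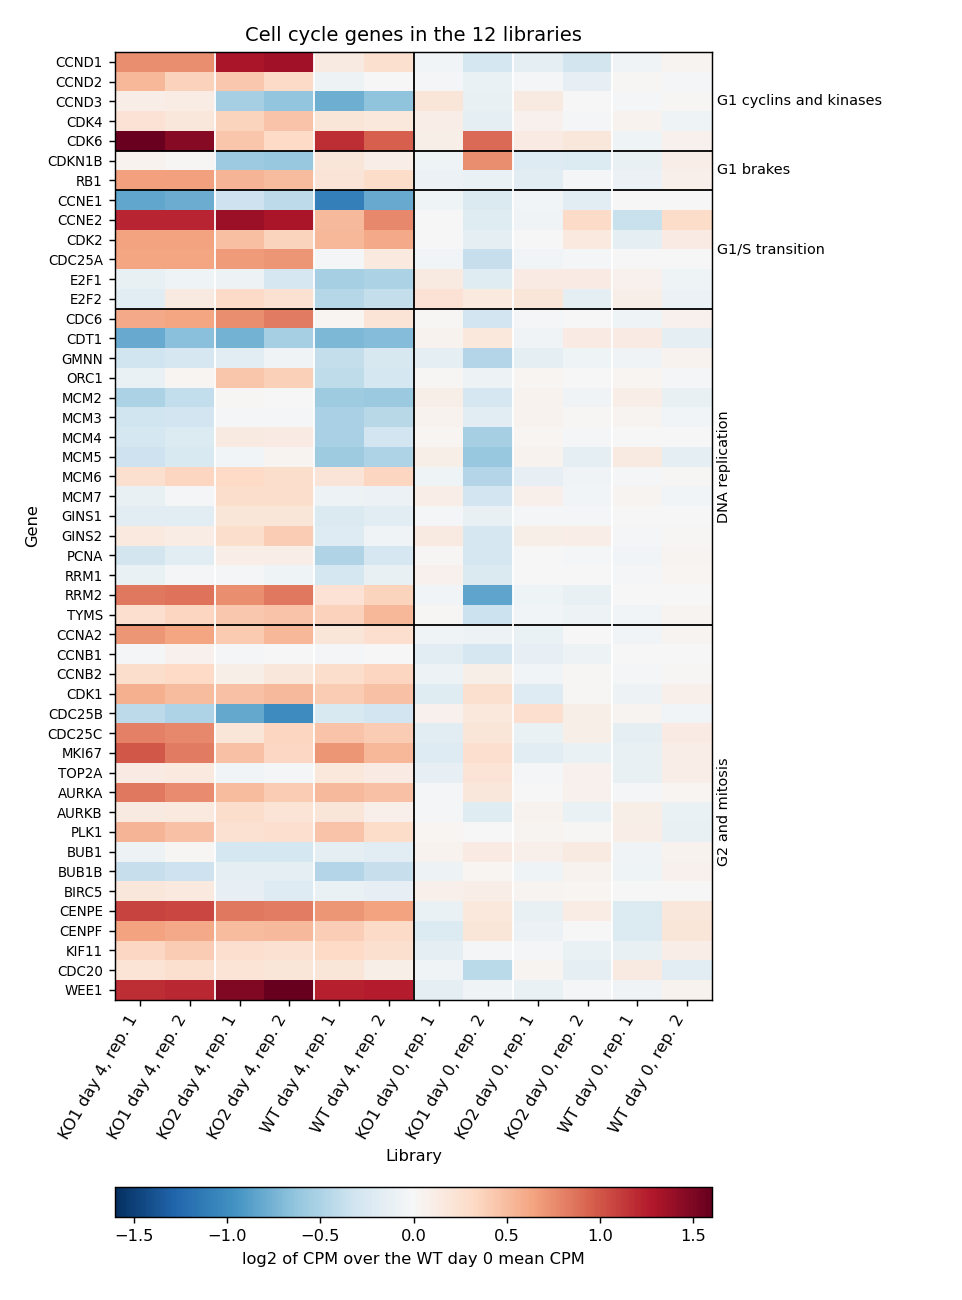
Heat map of the 48 tested genes (rows, grouped by role) in the 12 libraries (columns, day 4 left of day 0). Colour is the log2 of a library's CPM over the mean CPM of WT at day 0. Columns at day 0 are pale except for KO1 day 0 replicate 2, and WEE1 and CCNE2 are above the WT day 0 mean at day 4 in all 3 lines.

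The change over 4 days was then measured in each line. In WT, replication genes mostly fell and mitotic genes mostly rose. Of the 48 genes, 31 were called in WT (17 higher and 14 lower at day 4), against 49.6% of all features (24.3% higher and 25.4% lower). Among 16 replication genes, 2 rose and 9 fell, with a median log2 change of -0.26. Among 19 genes of G2 and mitosis, 11 rose and 2 fell, with a median of 0.28. The median over all features was -0.0038. With upper-quartile factors the split was 13 higher and 17 lower. Leaving out replicate 1 of WT gave 19 for the day 0 library and 20 for the day 4 library, and 16 of the 31 calls were kept in all 20 alternatives.

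In WT, the largest rise was that of WEE1, the kinase that holds CDK1 inactive before mitosis. WEE1 had 242 and 245 CPM at day 4, against 98.8 and 106 CPM at day 0. The ranges were far apart, with a log2 change of 1.25 ± 0.08 (adjusted p = 4.14e-09). CDK6, a partner of the D cyclins, had 86.7 and 74.3 CPM at day 4, against 36.5 and 40.3 CPM at day 0, a log2 change of 1.06 ± 0.18 (adjusted p = 0.000208). CCNE1, cyclin E1, went the other way, with 22.1 and 26.9 CPM at day 4, against 47.6 and 46.8 CPM at day 0. It fell by 0.94 ± 0.11 on the log2 scale (adjusted p = 4.05e-06). CCND3, a D cyclin, had 20.4 and 22.6 CPM at day 4, against 34.9 and 35.7 CPM at day 0, and fell by 0.71 ± 0.12 (adjusted p = 0.000144). All 4 of these WT calls were kept in all 20 alternatives.

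Within the replication genes of WT, CDT1, which helps load the MCM helicase at origins, had 56.4 and 57.2 CPM at day 4, against 101 and 84.1 CPM at day 0. Its log2 change was -0.70 ± 0.11 (adjusted p = 7.09e-05). PCNA, the sliding clamp of DNA polymerase, had 190 and 220 CPM at day 4, against 259 and 273 CPM at day 0. PCNA fell by 0.38 ± 0.10 (adjusted p = 0.00407), a call lost without WT day 4 replicate 1. TYMS, thymidylate synthase, rose instead, with 113 and 127 CPM at day 4 and 84.7 and 90.4 CPM at day 0 (log2 change 0.46 ± 0.10, adjusted p = 0.00185). E2F1, a transcription factor of the G1/S genes, fell by 0.51 ± 0.12 (adjusted p = 0.00182), with 30.7 and 31.2 CPM at day 4 and 46.4 and 42.0 CPM at day 0. CCNE2, cyclin E2, rose by 0.62 ± 0.20 (adjusted p = 0.0157), with 8.39 and 9.92 CPM at day 4 and 4.55 and 7.14 CPM at day 0. So the cyclin E genes moved in opposite directions in WT. The CCNE2 call was lost without WT day 0 replicate 1 and without WT day 4 replicate 2.

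Among the mitotic genes of WT, MKI67, the proliferation antigen Ki-67, had 430 and 380 CPM at day 4, against 242 and 283 CPM at day 0. It rose by 0.62 ± 0.13 on the log2 scale (adjusted p = 0.000748). BUB1B, a kinase of the spindle checkpoint, had 194 and 208 CPM at day 4, against 255 and 279 CPM at day 0. BUB1B fell by 0.41 ± 0.08 (adjusted p = 0.000425), against the direction of most mitotic genes. CCNB1, cyclin B1, had 278 and 282 CPM at day 4 and 283 CPM in each day 0 library. Its log2 change of -0.01 ± 0.07 was not called (adjusted p = 0.88).

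In KO1 the same interval gave 32 called genes (26 higher and 6 lower), against 58.4% of all features (29.1% higher and 29.3% lower). In KO1, 4 replication genes rose and 3 fell, and 14 mitotic genes rose and 2 fell. Without KO1 day 0 replicate 2, the total was 36 (25 higher and 11 lower), and 4 replication genes rose and 7 fell. With scaling by total counts alone, the split was 22 higher and 10 lower, and that scaling set the median of all features at -0.13. In KO2, 31 genes were called (24 higher and 7 lower), against 50.7% of all features (25.0% higher and 25.7% lower), with 7 replication genes higher and 1 lower, and 10 mitotic genes higher and 3 lower. Of these calls, 26 of 32 in KO1 and 22 of 31 in KO2 were kept in all 20 alternatives.

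The 3 lines share no library in these comparisons, so their calls can be set side by side. Over 4 days, 14 genes rose in all 3 lines: RB1, CCNE2, CDK2, MCM6, TYMS, CCNA2, CDK1, MKI67, AURKA, PLK1, CENPE, CENPF, KIF11 and WEE1. Of these, TYMS, MKI67, AURKA, CENPE and WEE1 (5 of 14) kept their calls in all 20 alternatives in all 3 lines, and the WT call of RB1 was lost in 10 of 20, DESeq2 and no filter among them. Of the 14, 9 belong to G2 and mitosis, among them the kinetochore motor CENPE and the spindle motor KIF11. CCNE1, CDT1 and CDC25B, a phosphatase that activates CDK1, fell in all 3 lines. Of these, CDT1 kept its calls in all 20 alternatives, while the KO2 call of CCNE1 was lost in 11 of 20, DESeq2 and no filter among them. Features outside the lists that rose, or fell, in all 3 lines were not counted. The 14 rising and 3 falling genes therefore have no background share to be set against. ORC1, the largest subunit of the origin recognition complex, and GINS1, a subunit of the replicative helicase, fell in WT and rose in KO2. ORC1 changed by 0.40 ± 0.08 in KO2 (adjusted p = 0.000777) and by -0.34 ± 0.08 in WT (adjusted p = 0.00277), where the call was lost without WT day 4 replicate 1. GINS1 changed by 0.22 ± 0.07 in KO2 (adjusted p = 0.0242) and by -0.21 ± 0.07 in WT (adjusted p = 0.029). The GINS1 calls were lost in KO2 without any of the 4 KO2 libraries, and in WT without any of the 4 WT libraries, among others.

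**Figure D2:**
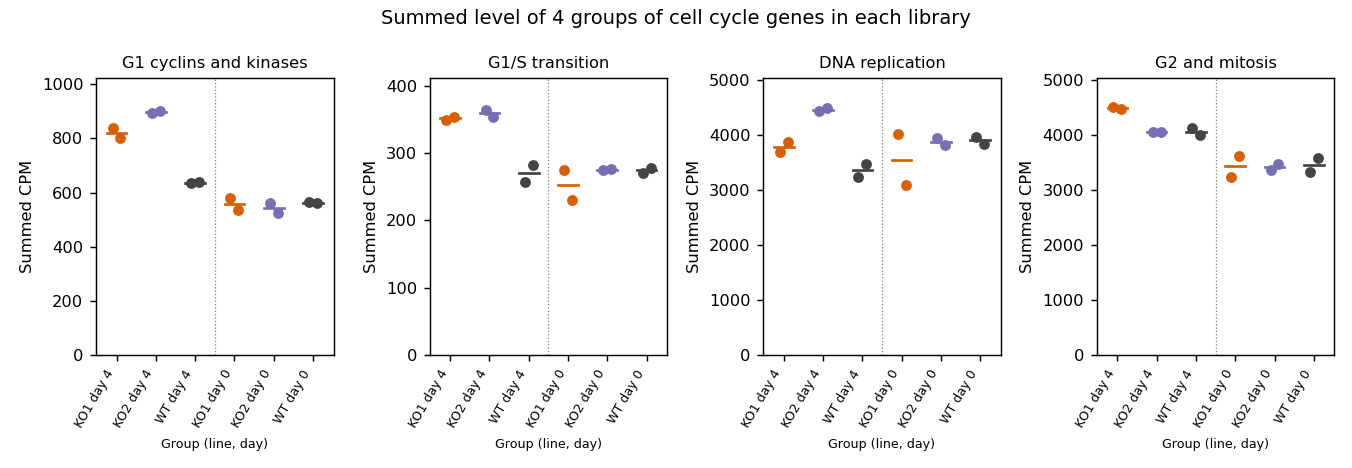
Summed CPM of the genes of each role in each library, for 4 of the 5 roles, with day 4 left of day 0, a point for each library and a bar at each group mean. At day 4 the replication genes summed to 3698 to 3868 CPM in KO1, 4437 to 4490 in KO2 and 3234 to 3480 in WT, and the WT libraries are the lowest.

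At day 4 the 50 genes summed to 9497 to 9594 CPM in KO1, 9839 to 9892 in KO2 and 8339 to 8495 in WT, so WT was the lowest. In KO1, 14 of 48 genes were called against WT, all of them higher (0 were lower at an unadjusted p under 0.05 or by DESeq2, which called 12 higher), against 19.9% of all features (10.5% higher and 9.42% lower). In KO2, 25 of 48 were called (22 higher and 3 lower), against 28.0% of all features (13.5% higher and 14.5% lower). Both comparisons use the same WT libraries. The median log2 difference over the 48 genes was 0.14 in KO1 and 0.18 in KO2, against 0.01 over all features in either comparison, and the KO1 median was 0.04 with scaling by total counts alone. Leaving out day 4 libraries of WT gave a KO1 count of 5 (replicate 1) or 8 (replicate 2), and leaving out those of KO1 gave 8 (replicate 1) or 7 (replicate 2). The KO1 count was 9 with scaling by total counts alone, against 21.5% of all features. In each fit without a library named here, the share of all features called fell as well. The KO2 count was 12 when WT day 4 replicate 1 was left out and 14 when KO2 day 4 replicate 2 was. In all 20 alternatives, 5 of the 14 KO1 calls and 12 of the 25 KO2 calls were kept.

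**Figure D3:**
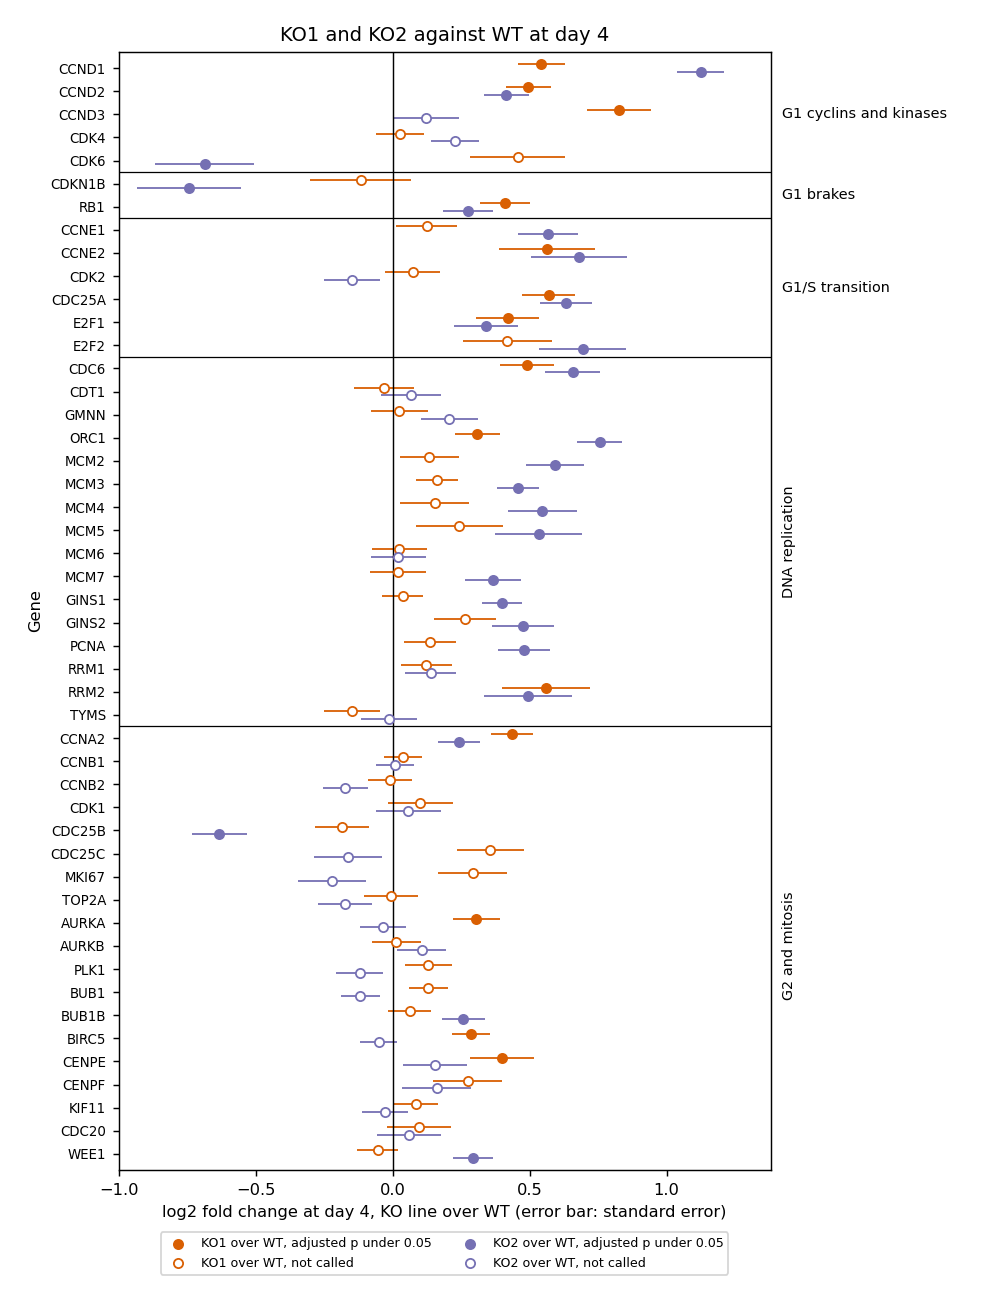
Log2 difference from WT at day 4 for the 48 tested genes in KO1 and KO2, grouped by role, with filled points for called genes and bars of 1 standard error. The values of KO1 and KO2 share the WT libraries. CCND1 is the farthest right in KO2 at 1.13, and CDKN1B the farthest left at -0.74.

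The D cyclins were the clearest of the G1 genes. CCND1, cyclin D1, had 255 and 254 CPM in KO1, 376 and 386 in KO2 and 168 and 181 in WT at day 4. The 3 lines did not overlap. CCND1 was 1.46-fold higher in KO1 (log2 0.54 ± 0.09, adjusted p = 0.000461) and 2.18-fold higher in KO2 (log2 1.13 ± 0.09, adjusted p = 2.08e-07). CCND2, cyclin D2, had 190 and 169 CPM in KO1, 177 and 162 in KO2 and 124 and 130 in WT. Again every knockout library was above both WT libraries, with log2 differences of 0.50 ± 0.08 in KO1 (adjusted p = 0.000708) and 0.41 ± 0.08 in KO2 (adjusted p = 0.00165). These 4 calls were kept in all 20 alternatives.

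The other D cyclin and its kinase separated the knockout lines. CCND3 had 38.1 and 38.5 CPM in KO1, 24.3 and 22.7 in KO2 and 20.4 and 22.6 in WT. CCND3 was higher in KO1 than in WT by 0.83 ± 0.12 on the log2 scale (adjusted p = 0.000189), while the KO2 value of 0.12 ± 0.12 was not called (adjusted p = 0.49). CDK6 had 115 and 106 CPM in KO1, 52.2 and 47.9 in KO2 and 86.7 and 74.3 in WT. CDK6 was lower in KO2 by 0.69 ± 0.18 (adjusted p = 0.0104), a call lost without WT day 4 replicate 1 and without KO2 day 4 replicate 2, and the KO1 value of 0.46 ± 0.17 was not called (adjusted p = 0.0804). CDK4, the kinase most like CDK6, was called in neither line, with 242 and 234 CPM in KO1, 264 and 282 in KO2 and 236 and 231 in WT.

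Of the brakes, CDKN1B, the p27 inhibitor of cyclin-dependent kinases, had 34.3 and 33.3 CPM in KO1, 22.0 and 21.8 in KO2 and 37.8 and 35.5 in WT at day 4. Both KO2 libraries were below the other 4. The log2 difference from WT was -0.74 ± 0.19 in KO2 (adjusted p = 0.00914), lost without WT day 4 replicate 1 and without KO2 day 4 replicate 2, and -0.12 ± 0.19 in KO1, not called (adjusted p = 0.72). RB1 had 63.6 CPM in each KO1 library, 58.7 and 57.2 in KO2 and 46.2 and 49.4 in WT. Its log2 difference was 0.41 ± 0.09 in KO1 (adjusted p = 0.00538), lost without WT day 4 replicate 1, and 0.28 ± 0.09 in KO2 (adjusted p = 0.0341), lost in 11 of 20 alternatives, among them without each library of WT day 4, KO1 day 4, KO2 day 4 and KO2 day 0. CDKN2A, the p16 locus, had 6 and 9 counts in KO1, 4 and 5 in KO2, and 10 and 5 in WT at day 4. CDKN2C, the p18 inhibitor, had 1 and 3 counts in KO1, 0 and 0 in KO2, and 9 and 7 in WT. The filter on low counts kept both out of the tests. In the alternative with no filter, CDKN2C was called lower in KO2 than in WT (edgeR adjusted p = 0.00389) and was not called in KO1 (adjusted p = 0.25), and CDKN2A was called in neither line.

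**Figure D4:**
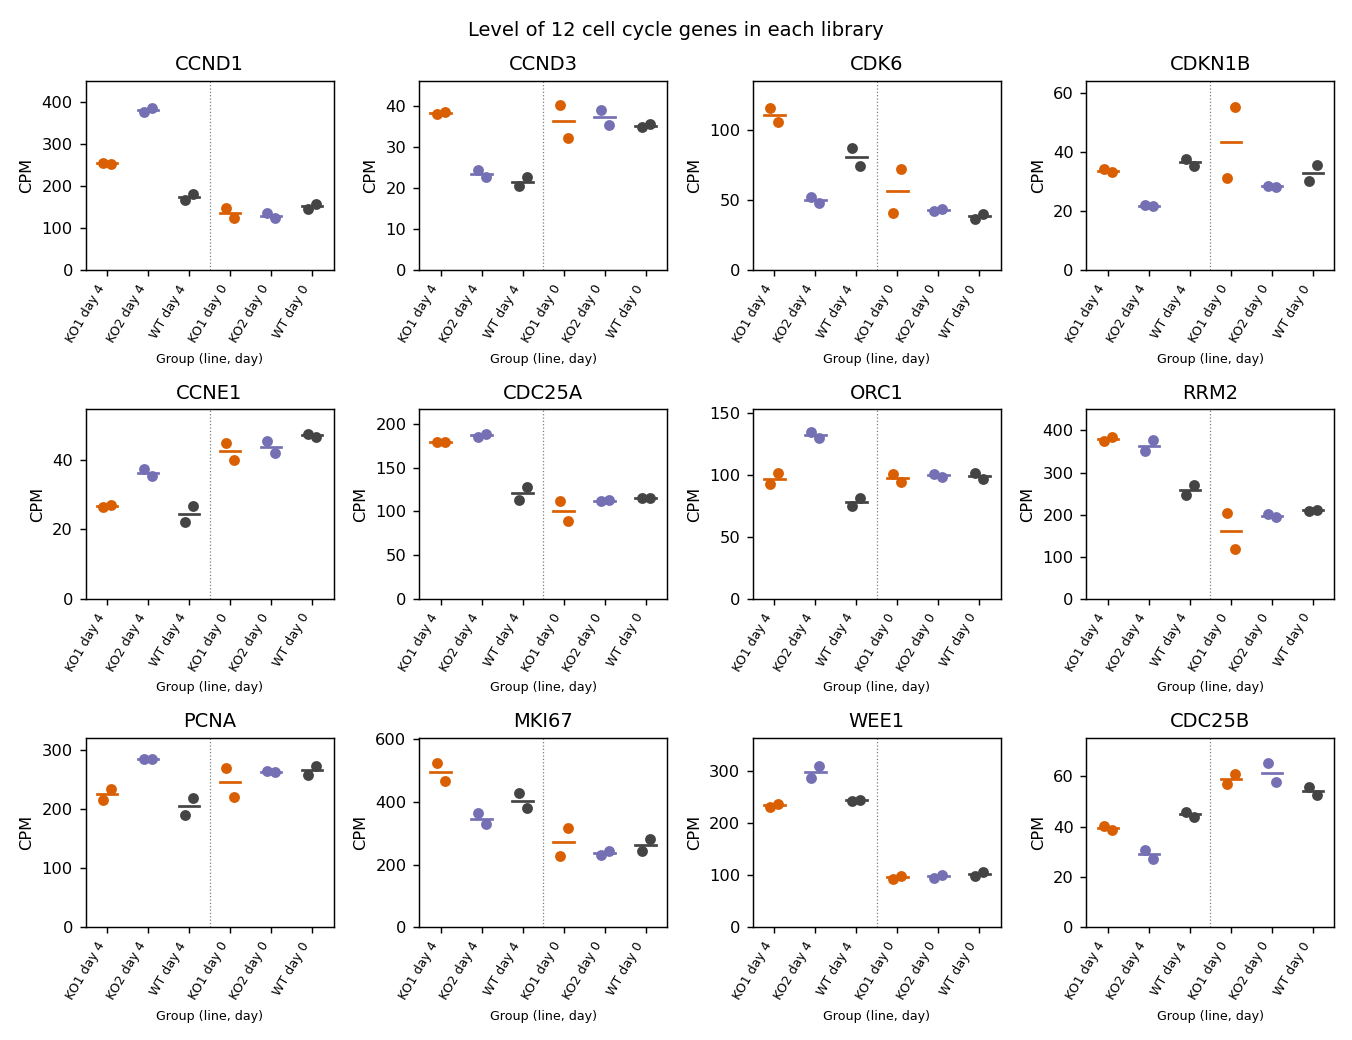
CPM of single genes in each library at day 4 and day 0 for KO1, KO2 and WT, each panel with its own axis from 0, points for libraries and bars for group means. CCND1 reaches 376 and 386 CPM in KO2 at day 4, and CDKN1B is lowest there, at 22.0 and 21.8 CPM.

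At the G1/S transition, CDC25A, the phosphatase that activates CDK2, rose over 4 days in both knockout lines and was not called over that time in WT. CDC25A had 179 CPM in each KO1 library, 186 and 189 in KO2 and 114 and 128 in WT at day 4, while the 6 day 0 libraries held 89.3 to 116 CPM. It was 1.48-fold higher in KO1 (log2 0.57 ± 0.10, adjusted p = 0.000733) and 1.55-fold higher in KO2 (log2 0.63 ± 0.10, adjusted p = 0.000174) than in WT, calls kept in all 20 alternatives. CCNE2 had 13.6 CPM in each KO1 library, 15.1 and 14.4 in KO2 and 8.39 and 9.92 in WT. Its log2 difference was 0.56 ± 0.18 in KO1 (adjusted p = 0.0352), lost in 8 of 20 alternatives, among them without each of the 6 day 4 libraries. In KO2 it was 0.68 ± 0.17 (adjusted p = 0.00906), lost without WT day 4 replicate 1 and without KO2 day 4 replicate 1.

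CCNE1 and the E2F genes also stood above WT in KO2. CCNE1 had 26.4 and 27.1 CPM in KO1, 37.4 and 35.4 in KO2 and 22.1 and 26.9 in WT at day 4. Only KO2 lay apart from WT, by 0.57 ± 0.11 (adjusted p = 0.00132), and KO1 was not called (0.12 ± 0.11, adjusted p = 0.49). E2F2 had 8.54 and 10.7 CPM in KO1, 11.96 and 11.4 in KO2 and 7.02 and 7.41 in WT. E2F2 was higher in KO2 by 0.69 ± 0.16 (adjusted p = 0.00444), and the KO1 value of 0.42 ± 0.16 was not called (adjusted p = 0.0858). E2F1, whose promoter is printed above, differed from WT by 0.42 ± 0.12 in KO1 (adjusted p = 0.0191), lost without any of the 4 libraries of KO1 and WT at day 4. Its KO2 value of 0.34 ± 0.12 (adjusted p = 0.0389) was lost in 12 of 20 alternatives, among them without any library other than those of KO1 day 0. CDK2 was called in neither line.

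Among the replication genes, 11 of 16 were higher in KO2 than in WT and 0 were lower at day 4, with a median log2 difference of 0.47, and in KO1, 3 of 16 were higher and 0 lower, with a median of 0.14. Over all features, 13.5% were higher in KO2 and 10.5% in KO1. Lower values were also 0 of 16 in either line at an unadjusted p under 0.05 and by DESeq2, which called 9 higher in KO2 and 2 in KO1. The 11 in KO2 were CDC6, ORC1, MCM2, MCM3, MCM4, MCM5, MCM7, GINS1, GINS2, PCNA and RRM2, and the 3 in KO1 were CDC6, ORC1 and RRM2. Those 11 hold 5 of the 6 MCM genes listed, which encode subunits of the replicative helicase.

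ORC1 had 92.1 and 101 CPM in KO1, 134 and 129 in KO2 and 74.8 and 81.1 in WT at day 4. The 3 lines did not overlap. The log2 difference from WT was 0.76 ± 0.08 in KO2 (adjusted p = 7.95e-06), kept in all 20 alternatives, and 0.31 ± 0.08 in KO1 (adjusted p = 0.0152), lost with scaling by total counts and without WT day 4 replicate 1 or KO1 day 4 replicate 2. CDC6, the loader that brings MCM to origins, had 263 and 268 CPM in KO1, 289 and 307 in KO2 and 176 and 201 in WT. Every knockout library was above both WT libraries, by 0.49 ± 0.10 in KO1 (adjusted p = 0.00287) and by 0.66 ± 0.10 in KO2 (adjusted p = 0.000172). The KO1 call of CDC6 was lost without WT day 4 replicate 1.

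MCM2 had 195 and 211 CPM in KO1, 281 and 277 in KO2 and 187 and 183 in WT at day 4, while the day 0 libraries of KO2 held 289 and 266 CPM and those of WT 299 and 255 CPM. KO2 at day 4 was thus within its day 0 range, and WT was below its own. MCM2 was higher in KO2 than in WT by 0.59 ± 0.11 (adjusted p = 0.000764). PCNA had 216 and 234 CPM in KO1, 286 CPM in each KO2 library, and 190 and 220 CPM in WT, and was higher in KO2 by 0.48 ± 0.10 (adjusted p = 0.00164). MCM3 (0.46 ± 0.08, adjusted p = 0.0004) and GINS1 (0.40 ± 0.07, adjusted p = 0.000883) were higher in KO2 as well. These 4 KO2 calls were kept in all 20 alternatives.

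RRM2, the regulated subunit of ribonucleotide reductase, had 376 and 385 CPM in KO1, 351 and 377 in KO2 and 246 and 270 in WT at day 4. Its log2 difference was 0.56 ± 0.16 in KO1 (adjusted p = 0.0229) and 0.49 ± 0.16 in KO2 (adjusted p = 0.0312). Both calls were lost with DESeq2 and without any of the day 4 libraries compared, and that of KO2 also without any WT or KO2 day 0 library. CDT1, its inhibitor GMNN, MCM6, RRM1 and TYMS were called in neither line. CDT1 had 52.8 and 58.2 CPM in KO1, 55.0 and 64.0 in KO2 and 56.4 and 57.2 in WT, so the 3 lines overlapped.

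Genes of G2 and mitosis followed. In KO1, 4 of 19 were higher and 0 lower (CCNA2, AURKA, BIRC5 and CENPE), with 0 lower too at an unadjusted p under 0.05 and by DESeq2, against 10.5% of all features higher. In KO2, 3 were higher (CCNA2, BUB1B and WEE1) and 1 lower (CDC25B), a share of higher genes near the 13.5% of all features higher, beside 14.5% lower. CCNA2, cyclin A2, had 235 and 222 CPM in KO1, 191 and 208 in KO2 and 164 and 173 in WT at day 4. The log2 difference was 0.44 ± 0.08 in KO1 (adjusted p = 0.00101), kept in all 20 alternatives. In KO2 it was 0.24 ± 0.08 (adjusted p = 0.0266), lost with scaling by total counts and without any of the KO2 libraries or the WT day 4 libraries. CDC25B had 40.4 and 38.5 CPM in KO1, 30.8 and 27.0 in KO2 and 45.8 and 43.8 in WT. CDC25B was lower in KO2 by 0.63 ± 0.10 (adjusted p = 0.000268), kept in all 20 alternatives, and its KO1 value of -0.18 ± 0.10 was not called (adjusted p = 0.22).

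WEE1 had 232 and 237 CPM in KO1, 287 and 311 in KO2 and 242 and 245 in WT at day 4. WEE1 was higher in KO2 than in WT by 0.29 ± 0.07 (adjusted p = 0.008), lost without WT day 4 replicate 1, WT day 4 replicate 2 or KO2 day 4 replicate 2. BUB1B was higher in KO2 by 0.26 ± 0.08 (adjusted p = 0.0223), with 239 and 241 CPM in KO2 and 194 and 208 CPM in WT, a call lost with scaling by total counts and without any of those 4 libraries. MKI67 had 524 and 467 CPM in KO1, 364 and 331 in KO2 and 430 and 380 in WT. MKI67 was called against WT in neither line (log2 0.29 ± 0.12 in KO1, adjusted p = 0.12; -0.22 ± 0.13 in KO2, adjusted p = 0.21). CCNB1 overlapped between the lines, with 279 and 297 CPM in KO1, 279 and 285 in KO2 and 278 and 282 in WT.

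The knockout lines were also compared with each other at day 4. Of 48 genes, 20 were called (10 higher and 10 lower in KO2 than in KO1), against 25.1% of all features (10.8% higher and 14.3% lower). By role, 7 of 16 replication genes were higher in KO2 and 0 lower (0 lower too at an unadjusted p under 0.05 and by DESeq2), while 1 of 19 genes of G2 and mitosis was higher and 7 were lower. The median log2 difference was 0.25 for replication genes and -0.17 for genes of G2 and mitosis, against 0.0038 over all features. CCND1 (0.58 ± 0.08, adjusted p = 0.000126), ORC1 (0.45 ± 0.08, adjusted p = 0.000809) and GINS1 (0.36 ± 0.07, adjusted p = 0.00197) were higher in KO2. CDK6 (-1.14 ± 0.18, adjusted p = 0.000258), CCND3 (-0.70 ± 0.12, adjusted p = 0.000399) and BIRC5, the mitotic protein survivin (-0.34 ± 0.07, adjusted p = 0.00206), were lower. These 6 calls were kept in all 20 alternatives. Leaving out replicate 1 of KO1 at day 4 gave a total of 8, and leaving out a KO2 day 4 library gave 11 (replicate 1) or 9 (replicate 2). It was 32 when the fit used the 4 compared libraries alone, where 43.0% of all features were called.

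Whether the change over 4 days differed between a knockout line and WT was tested directly, as the line's change minus that of WT. In KO1, 8 of 48 genes were called, all with a more positive change than in WT (1 was more negative at an unadjusted p under 0.05, and 0 by DESeq2), against 9.80% of all features (4.99% higher and 4.81% lower). In KO2, 13 were called (11 more positive and 2 more negative), against 13.9% (6.37% higher and 7.50% lower). Both differences share the WT libraries. The median over the 48 genes was 0.24 in KO1 and 0.21 in KO2, against 0.01 over all features in either. The KO1 median was 0.14 without KO1 day 0 replicate 2 and 0.13 with scaling by total counts alone. CCND1 rose by 0.90 ± 0.09 in KO1 and by 1.55 ± 0.09 in KO2, and its WT change of 0.20 ± 0.09 was not called (adjusted p = 0.0682). The difference from the WT change was 0.70 ± 0.12 in KO1 (adjusted p = 0.00252) and 1.35 ± 0.12 in KO2 (adjusted p = 6.65e-06). For CDC25A it was 0.77 ± 0.14 in KO1 (adjusted p = 0.00276) and 0.67 ± 0.14 in KO2 (adjusted p = 0.00425). CCND3 differed in KO1, by 0.79 ± 0.16 (adjusted p = 0.00753), and its own change was called in WT but not in KO1.

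Of the 6 replication genes called in KO2 for this difference (CDC6, ORC1, MCM2, MCM3, GINS1 and PCNA), ORC1 had the largest value, at 0.74 ± 0.12 (adjusted p = 0.000629). CDC25B had the difference of -0.81 ± 0.14 (adjusted p = 0.00129), since it fell by 1.09 ± 0.10 in KO2 and by 0.27 ± 0.10 in WT. The WT fall of CDC25B (adjusted p = 0.0286) was lost with DESeq2, with no filter and without any of the 4 WT libraries. The calls kept in all 20 alternatives were those of CCND1, CCND3 and CDC25A in KO1, and of CCND1, CDC25A, CDC6, ORC1 and CDC25B in KO2. The KO1 count was 4 when WT day 0 replicate 2, WT day 4 replicate 1 or KO1 day 4 replicate 1 was left out. Of the KO1 day 0 libraries, leaving out replicate 1 gave 26 and replicate 2 gave 13. The KO2 count was 25 without either KO1 day 0 library and 5 when WT day 4 replicate 1 was left out. Leaving out KO2 libraries gave 8 (replicate 1) or 5 (replicate 2) at day 0, and 6 (replicate 1) or 7 (replicate 2) at day 4. The KO2 count was 24 when the fit used the 8 compared libraries alone, where 25.0% of all features were called.

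**Figure D5:**
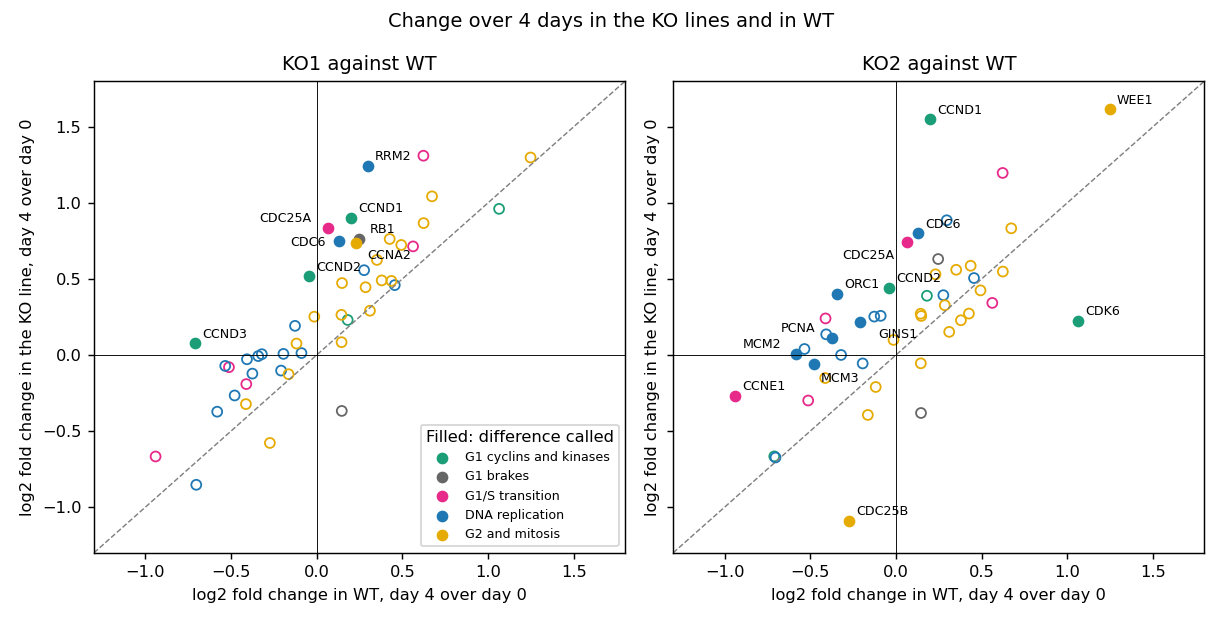
Log2 change over 4 days in a knockout line (vertical axis) against that in WT (horizontal axis) for the 48 tested genes, KO1 on the left and KO2 on the right, coloured by role. Filled and named points are genes called for the difference between the changes, and the dashed line marks equal change. CCND1 lies at 1.55 in KO2 and 0.20 in WT.

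Lists of other cell cycle genes were read in the same way. Of 42 other replication genes, 17 were higher and 0 lower in KO2 than in WT at day 4 (median log2 difference 0.26; 0 lower also at an unadjusted p under 0.05 and by DESeq2), and 2 were higher and 3 lower in KO1 (median 0.03). Over all features, 13.5% were higher in KO2, and 10.5% were higher and 9.42% lower in KO1. MCM10, which helps start the replicative helicase, was higher in KO2 by 0.53 ± 0.10 (adjusted p = 0.000761). Of 36 other genes of G2 and mitosis, 5 were higher and 6 lower in KO2 (median -0.02), and 5 higher and 2 lower in KO1 (median 0.07), totals near the 28.0% and 19.9% of all features called in KO2 and KO1. NEK2, a centrosome kinase, was lower by 0.85 ± 0.12 in KO2 (adjusted p = 0.000108) and by 0.56 ± 0.12 in KO1 (adjusted p = 0.00408), and the KO1 call was lost without KO1 day 4 replicate 2. MAD2L1, a spindle checkpoint protein, was higher in KO2 by 0.50 ± 0.08 (adjusted p = 0.00046). It was also higher in KO1, by 0.35 (edgeR adjusted p = 0.00948), a call lost without WT day 4 replicate 1 or KO1 day 4 replicate 1.

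Of 22 other G1 regulators, 8 were higher and 6 lower in KO2 than in WT at day 4, and 6 were higher and 1 lower in KO1. Over all features, 13.5% were higher and 14.5% lower in KO2, and 10.5% higher and 9.42% lower in KO1. CDKN1A had 27.6 and 29.2 CPM in KO1, 13.9 and 11.7 in KO2 and 43.3 and 63.7 in WT. Every knockout library was below both WT libraries, as at day 0. The log2 difference was -0.91 ± 0.16 in KO1 (adjusted p = 0.0013) and -2.07 ± 0.18 in KO2 (adjusted p = 7.6e-07). CCNG2, cyclin G2, which is known to rise in cells that leave the cycle, had 30.6 and 30.9 CPM in KO1, 13.2 and 11.04 in KO2 and 31.8 and 30.5 in WT, and was lower in KO2 by 1.37 ± 0.14 (adjusted p = 5.99e-06). MYC, a transcription factor that drives growth and division, had 172 and 160 CPM in KO1, 175 and 189 in KO2 and 113 and 93.8 in WT. It was higher in KO2 by 0.81 ± 0.10 (adjusted p = 1.81e-05). E2F8, an E2F family repressor, had 25.6 and 28.5 CPM in KO1, 26.6 and 26.7 in KO2 and 16.2 and 15.5 in WT, and was higher in KO1 by 0.77 ± 0.11 (adjusted p = 0.000232). The values of MYC and E2F8 were above those of WT in both knockout lines, so neither gene was particular to KO1 or KO2. The calls of CDKN1A, CCNG2, MYC and E2F8 given here were kept in all 20 alternatives. CDKN2B, a further inhibitor of cyclin-dependent kinases, was higher in KO1 than in WT at day 4 (log2 1.41, edgeR adjusted p = 0.000593). It was lower in KO2 than in KO1 (log2 -2.29, edgeR adjusted p = 1.09e-05), and its KO2 value against WT at day 4 is not given here. Its log2 change over 4 days was 3.03 in WT, 4.53 in KO1 and 2.72 in KO2, called in each. These CDKN2B calls were kept in all 20 alternatives as well.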

How the data were processed

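RNA of 12 libraries (poly(A) RNA, TruSeq Stranded mRNA kit, per the labels' protocols) was analysed; the ChIP-seq samples were not analysed here. The deposited files hold whole-number counts per gene symbol, made by the authors with Bowtie2 2.1.0 and HTSeq 0.6.1 on hg19, per the submitters' processing notes. For the annotation and the strand setting, the sources used here give nothing. Entries that HTSeq adds for unassigned reads stayed out of library sizes and tests; those with no feature were 29.2% to 30.5% of the sum of a file's gene and unassigned counts.

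All 12 libraries were fitted together in 6 groups with edgeR 4.0.16 (R 4.3.3, limma 3.58.1), with TMM factors, filterByExpr and glmQLFit and glmQLFTest, on 16792 features, with Benjamini-Hochberg adjustment over all of them and a threshold of 0.05. The fit left 6 residual degrees of freedom. Values written as ± are standard errors, computed as the log2 fold change over the square root of F. CPM from the deposited counts use TMM-scaled totals. DESeq2 1.42.0, other scalings and filters, the replicate number as a block, the compared libraries alone and each library left out were alternatives. The fit was run on simulated counts whose planted changes were larger than most of those given here. That run does not speak to the smaller changes.

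The members and lists were chosen with earlier results of these data known. Genes given in full were 6 set by name and, in each role and comparison with WT or day 0, the called gene with the largest change each way; other members are named to complete a role. Of each list of other cell cycle genes, at most the 2 largest called each way in a comparison are named. The exception is CDKN1A in the KO2 change minus the WT change, which was added by name. CDKN1A, CCNG2, MYC and E2F8 were given with library values after these were seen. The reference gene table (GRCh38.p14) served for names, overlaps and promoter sequences, and no position in hg19 is given. Replicate numbers are shared between groups, but deviations of same-numbered libraries correlated at -0.04 to 0.15, so the numbers were not taken to pair libraries.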

Additional observations from a re-analysis of the deposited data

Results flagged for a closer look

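The change over 4 days differed from that of WT, by the edgeR test of the difference itself, in the genes listed here; each value is the line's log2 change minus the WT log2 change, and both lines share the WT libraries. In KO1, the G1 genes with a called difference were CCND1 (0.70), CCND2 (0.56), CCND3 (0.79) and RB1 (0.52). The G1/S and replication genes were CDC25A (0.77), CDC6 (0.62) and RRM2 (0.95, and 0.59 without KO1 day 0 replicate 2), and the mitotic gene was CCNA2 (0.51). In KO2, the G1 genes were CCND1 (1.35), CCND2 (0.49) and CDK6 (-0.84), and the G1/S genes were CCNE1 (0.67) and CDC25A (0.67). The replication genes in KO2 were CDC6 (0.67), ORC1 (0.74), MCM2 (0.59), MCM3 (0.42), GINS1 (0.42) and PCNA (0.49). The mitotic genes in KO2 were CDC25B (-0.81) and WEE1 (0.37).

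The CDK6 difference in KO2 (adjusted p = 0.0468) was lost in 11 of 20 alternatives and that of WEE1 (adjusted p = 0.0331) in 10 of 20. Without WT day 0 replicate 2, WT day 4 replicate 1 or KO1 day 4 replicate 1, the KO1 differences of RB1, RRM2 and CCNA2 were among those lost. Of the 50 genes, only CCND1, CCND3 and CDC25A kept the call in KO1 in all 20 alternatives. In KO2 only CCND1, CDC25A, CDC6, ORC1 and CDC25B did. Among other cell cycle genes, the KO1 change differed for DBF4, a kinase subunit that fires origins (0.47), NEK2 (-0.68), E2F8 (0.84) and MYC (0.69). The KO2 change differed for DBF4 (0.57), the clamp loader gene RFC3 (0.55), MAD2L1 (0.65), NEK2 (-0.68), CKS1B, a subunit of cyclin-dependent kinases (0.52), and FZR1, an activator of the anaphase-promoting complex (-0.71). Among G1 regulators in KO2 it differed for E2F8 (0.77), CDKN1A (-1.01), the p57 inhibitor CDKN1C (-1.33), MYC (0.88) and CCNG2 (-1.70). In KO1, the call of DBF4 was lost in 9 of 20 alternatives and that of NEK2 in 7. In KO2, that of RFC3 was lost in 7, those of CKS1B and NEK2 in 5 each, that of FZR1 in 4, that of DBF4 in 3 and that of CDKN1C in 1. For the CDKN1A difference in KO2 (edgeR adjusted p = 0.0178), lost calls over the alternatives were not counted. With 2 libraries a group, no single library was tested as an outlier within its group. The cause of these differences was not tested.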

How the results depend on the processing

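Each count of called genes was recomputed under 20 alternatives. Of these, 8 changed the tool, scaling, filter, block or libraries fitted, and 12 left out 1 library each. The share of all features called moved across them as well. A moved count is therefore not by itself a result about these genes. Leaving out 1 library moved the count over a range of 19 to 38 for the WT change (31 as reported), 29 to 39 for KO1 (32) and 23 to 38 for KO2 (31). At day 0 the range was 0 to 21 for KO1 against WT, 0 to 0 for KO2 against WT and 0 to 20 for KO2 against KO1. At day 4 it was 5 to 22 for KO1 against WT (14), 12 to 30 for KO2 against WT (25) and 8 to 29 for KO2 against KO1 (20). For the change minus the WT change it was 4 to 26 in KO1 (8) and 5 to 25 in KO2 (13). Among the other 8, these counts left 1.5 times the reported one, given with the share of all features called. With no filter, the count was 2 for KO1 against WT (1.36%) and 1 for KO2 against KO1 (0.251%) at day 0. With total counts, it was 9 for KO1 against WT at day 4 (21.5%). With the compared libraries alone, it was 32 for KO2 against KO1 at day 4 (43.0%) and 24 for the KO2 change minus the WT change (25.0%). The KO1 log2 changes of MCM4 (-0.03), MCM5 (-0.07) and MCM7 (0.01) were not called, but without KO1 day 0 replicate 1 they were called at 0.28, 0.32 and 0.23, and without KO1 day 0 replicate 2 at -0.27, -0.37 and -0.17. With the replicate number as a block, 32 genes were called for the WT change, 32 for KO1, 32 for KO2, 15 for KO1 against WT and 26 for KO2 against WT at day 4, 21 for KO2 against KO1 at day 4, 8 and 13 for the KO1 and KO2 changes minus the WT change, and 0 in each comparison at day 0. The numbers share no stated pairing. The causes were not tested. Where an alternative left 1 library in a group, that library is assumed to vary like the others. CDKN2A and CDKN2C are limited by depth, with at most 10 counts in any library.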
